A study of Apis mellifera with 12 samples.

Results

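Circular RNAs (circRNAs) of queen ovaries were compared between honey bee (Apis mellifera) queens kept from laying by a cage and queens in the laying state. The caged group was set against the laying and the released group, each with equal weight, 3 libraries against 6. All circRNAs that passed a filter on low counts entered the comparison, 2800 of the 20244 listed in the whole series. They held between 94.0% and 96.1% of the circRNA reads of each of the 9 libraries.

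The caged group consisted of queens held in a cage inside their own colony for 7 days and sampled when that time ended. The laying group consisted of queens laying normally, for which no treatment is listed. The released group had also been caged for 7 days, was then let out and was sampled on day 8 while laying again, so this group shares the history of caging with the caged one. The virgin group, the last of the series' 4 groups of 3 libraries, entered no test here. No source used here gives the strain or the age in days, nor whether a library came from 1 queen or from pooled ovaries. The comparison asks which circRNAs differ between caged queens and the mean of the laying and the released group. A difference from the laying group alone, or from the released group alone, also enters it. Being in a cage and not laying came together in the caged group, so they cannot be told apart.

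A circRNA is a closed loop made when a splice donor is joined back to an acceptor upstream of it, and a single gene can give several loops that share one of the splice sites. Having no free ends, circRNAs resist exonucleases and tend to outlast the linear RNA of the same gene. In a laying queen the ovary is full of ovarioles with growing oocytes and their nurse cells, and a cage keeps her from depositing eggs. In whole ovaries, fewer cells of a type and less of an RNA in each cell cannot be told apart. No gene name stands beside any circRNA in the table, so the members are named by their IDs and their positions in Amel_4.5, and ovary markers were not matched here.

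Caged libraries held 206697, 170382 and 176237 circRNA reads, laying libraries 133403, 173922 and 89106, and released libraries 106396, 163875 and 111025. The caged mean of 184440 ± 19497 reads (SD, n = 3) was above the mean of 129620 ± 33695 reads in the laying state (SD, n = 6), with an exact two-sided permutation p of 0.0476 (adjusted p = 0.0952 over 6 values per library). The smallest p that 3 against 6 libraries allow is 0.0238. Counts of 1 do not occur in the table, so a circRNA listed at 0 may have had fewer than 2 reads, and no fold is given where a whole group is listed at 0. After reduction to the smallest of the 9 totals, 89106 reads, 3775 ± 75.2 circRNAs were expected with at least 2 reads in caged libraries and 3810 ± 218 in the laying state, an exact permutation p of 1. Log CPM of libraries of the same group had a correlation of 0.790 to 0.874 over 9 pairs, and that of caged with laying or released libraries was 0.788 to 0.854 over 18 pairs. The medians were 0.824 within groups and 0.827 for caged with laying or released libraries. Pairs within the caged group alone had 0.874, 0.872 and 0.846, near or above the upper end of the range of caged with laying or released libraries. Read totals differed between the pairs, and the part of depth in these correlations was not tested.

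Single circRNAs differed too little, for the spread between replicates, for any to pass the test. None of the 2800 circRNAs (0%) had a Benjamini-Hochberg adjusted p under 0.05 in edgeR's quasi-likelihood test, and the smallest adjusted p was 0.295. An unadjusted p under 0.05 was found for 239 circRNAs (8.54%), 143 higher in caged queens (5.11%) and 96 lower (3.43%). Between the groups that were pooled, released against laying, it was found for 213 circRNAs (7.61%). That contrast sets 3 libraries against 3, and its log2 fold changes had a median standard error of 0.606, beside 0.503 for caged against both. The shares therefore do not compare like with like. DESeq2 called 16 of the 2800 circRNAs, 9 higher and 7 lower. It gave no adjusted p for 2063 of them, so its adjustment covers fewer circRNAs than that of edgeR. All 16 were among the 239, which come from the same counts and are no separate evidence. In all 3 caged libraries, 58 circRNAs (2.07%) lay above all 6 libraries of the laying state and 49 (1.75%) lay below them.

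How much the data could have shown depended on abundance. The log2 fold changes had a median standard error (SE) of 0.50, and for 655 circRNAs (23.4%) the 95% interval stayed within a 2-fold change in either direction. Among the 175 circRNAs with a mean of at least 1000 CPM, the count scaled to a common total of circRNA reads per library, the interval stayed within 2-fold for 83.4%, and 33 (18.9%) had an unadjusted p under 0.05. Setting caged queens against both groups also narrowed the error, since the median SE against the laying group alone was 0.59 with 445 intervals (15.9%) within 2-fold. The median log2 fold change of all 2800 was 0.08, or 0.04 when scaled by library totals.

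**Figure D1:**
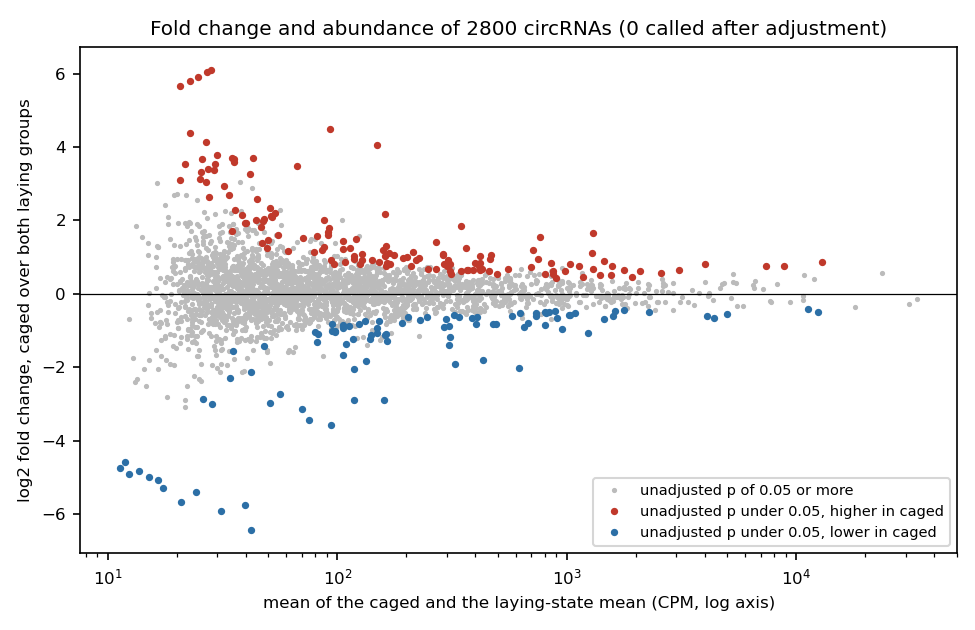
Log2 fold change of caged over both laying groups (vertical axis) against mean abundance in CPM (horizontal log axis) for the 2800 circRNAs tested, with unadjusted p under 0.05 in red where higher and blue where lower in caged queens. The coloured points narrow towards 0 as abundance grows, and 0 circRNAs passed after adjustment.

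Summed over loci, 0 of 1453 (0%) were called and the smallest adjusted p was 0.231. An unadjusted p under 0.05 was found for 143 loci (9.84%), 84 higher (5.78%) and 59 lower (4.06%), and 31 loci (2.13%) lay above and 36 (2.48%) below all 6 libraries of the laying state. One group of circRNAs higher in caged queens came from one stretch of LG8. The locus spans LG8:8546045-8600528 on the minus strand and was singled out after its values were seen. Its 8 circRNAs together made up 35230, 45404 and 61026 CPM in caged libraries, against 36468, 28266 and 31053 CPM in laying and 30208, 29175 and 38883 CPM in released libraries. The first caged library lay inside the range of the laying state and the other caged libraries lay above it. The log2 fold change of the locus was 0.58 ± 0.17 (SE), with an adjusted p of 0.259 among the 1453 loci.

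All 8 circRNAs of this LG8 locus had a higher mean in caged queens. Of these, 5 had an unadjusted p under 0.05, beside 5.11% higher over all 2800. The 8 circRNAs are built from 3 start and 3 end positions in different pairs. They overlap, so their shared direction is not independent. The largest loop, ame_circ_0019202, joins the outermost positions, LG8:8546045-8600528, and spans 54484 nt of genome. It had 1369, 1679 and 2241 CPM in caged libraries, against 937, 943 and 685 CPM in laying and 423, 1098 and 865 CPM in released libraries. Every caged library was above all 6 others, the log2 fold change was 1.11 ± 0.27 (SE), and the adjusted p was 0.295.

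Among LG8 loops that share a start, the fold change was larger the farther the end lay. Across starts it did not follow the span, since ame_circ_0019201 spans 22004 nt and had a larger one than ame_circ_0019206 and ame_circ_0019211, which span 51059 and 46542 nt. For the loops that begin at LG8:8546045, the log2 fold change was 1.11 ± 0.27 for ame_circ_0019202, 0.94 ± 0.25 for ame_circ_0019201, which ends at 8568048, and 0.27 ± 0.23 for ame_circ_0019200, which ends at 8554151 (SE). The same order held for the loops that begin at LG8:8549470, with 0.76 ± 0.20 for ame_circ_0019206, 0.56 ± 0.22 for ame_circ_0019205 and 0.36 ± 0.20 for ame_circ_0019203, from the farthest to the nearest end. At the third start, LG8:8553987, ame_circ_0019211 had 0.76 ± 0.21 and the shorter ame_circ_0019210 had 0.42 ± 0.20. The test of unequal change within the locus gave an adjusted p of 0.927 (edgeR's F test), so this order is a description.

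By mean CPM the first of these loops, ame_circ_0019210, averaged 13523 ± 3939 CPM in caged queens (SD, n = 3) and 10393 ± 1611 CPM in the laying state (SD, n = 6). The largest differences in CPM within the locus were those of ame_circ_0019211 and ame_circ_0019206. In caged libraries ame_circ_0019211 had 9028, 10359 and 13544 CPM, against 7729, 4991 and 5847 CPM in laying and 6090, 5822 and 9583 CPM in released libraries. For ame_circ_0019206 the caged libraries had 6556, 9350 and 11700 CPM, against 7489, 5261 and 5364 CPM in laying and 4775, 4735 and 5927 CPM in released libraries. In both, the lowest caged library overlapped with the laying state, and the adjusted p was 0.316 for ame_circ_0019211 and 0.295 for ame_circ_0019206. DESeq2 called ame_circ_0019202, ame_circ_0019206, ame_circ_0019201 and ame_circ_0019211 of this locus, with adjusted p of 0.0231, 0.0255, 0.0478 and 0.0478.

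A locus on LG16 was the counterpart among circRNAs lower in caged queens. At LG16:6919772-7012435 on the plus strand, 9 circRNAs together had 668, 1714 and 1731 CPM in caged libraries, against 3823, 4548 and 2379 CPM in laying and 3083, 2380 and 2045 CPM in released libraries. Every caged library was below all 6 others. The log2 fold change was -1.10 ± 0.29 (SE), with an adjusted p of 0.231, and when any 1 library was left out it ranged from -1.29 to -0.75. A locus with nearly the same bounds was listed on the minus strand. In edgeR without the filter on low counts its log2 fold change was -1.135 (adjusted p = 0.0368). With the filter, edgeR gave it an unadjusted p of 0.0981. Whether reads of both strands were told apart at these loci was not tested.

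All 9 circRNAs of the LG16 locus had a negative log2 fold change. Of these, 5 had an unadjusted p under 0.05, beside 3.43% lower over all 2800. One of the 5, ame_circ_0007791, was listed at 0 in all 3 caged libraries. It passed the filter on low counts through libraries of the laying state alone, so its value is a description. Members of the locus overlap, so their shared direction is not independent. Some members span only the first part of the locus. The short ame_circ_0007763, which spans 1218 nt, had 281, 552 and 516 CPM in caged libraries, against 787, 989 and 819 CPM in laying and 977, 921 and 640 CPM in released libraries. Its neighbour ame_circ_0007771 has a start 2 nt further on and the same end, and had 314, 681 and 704 CPM in caged libraries, against 847, 1524 and 943 CPM in laying and 1259, 824 and 856 CPM in released libraries. Both were lower in every caged library than in all 6 others.

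The other members of the LG16 locus reach across 91545 to 92664 nt, apart from ame_circ_0007785, which spans 1198 nt. The most abundant, ame_circ_0007767 (LG16:6919772-7012430), had 72.6, 176 and 216 CPM in caged libraries, against 922, 736 and 359 CPM in laying and 254, 207 and 288 CPM in released libraries. Released libraries lay between the others, and one of them was inside the caged range. Its log2 fold change was -1.38 ± 0.38 (SE, adjusted p = 0.295), made of -2.12 against laying and -0.64 against released queens. Since starts 2 nt apart were listed as separate circRNAs here, the split of reads between ame_circ_0007763 and ame_circ_0007771 rests on the authors' calling.

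**Figure D2:**
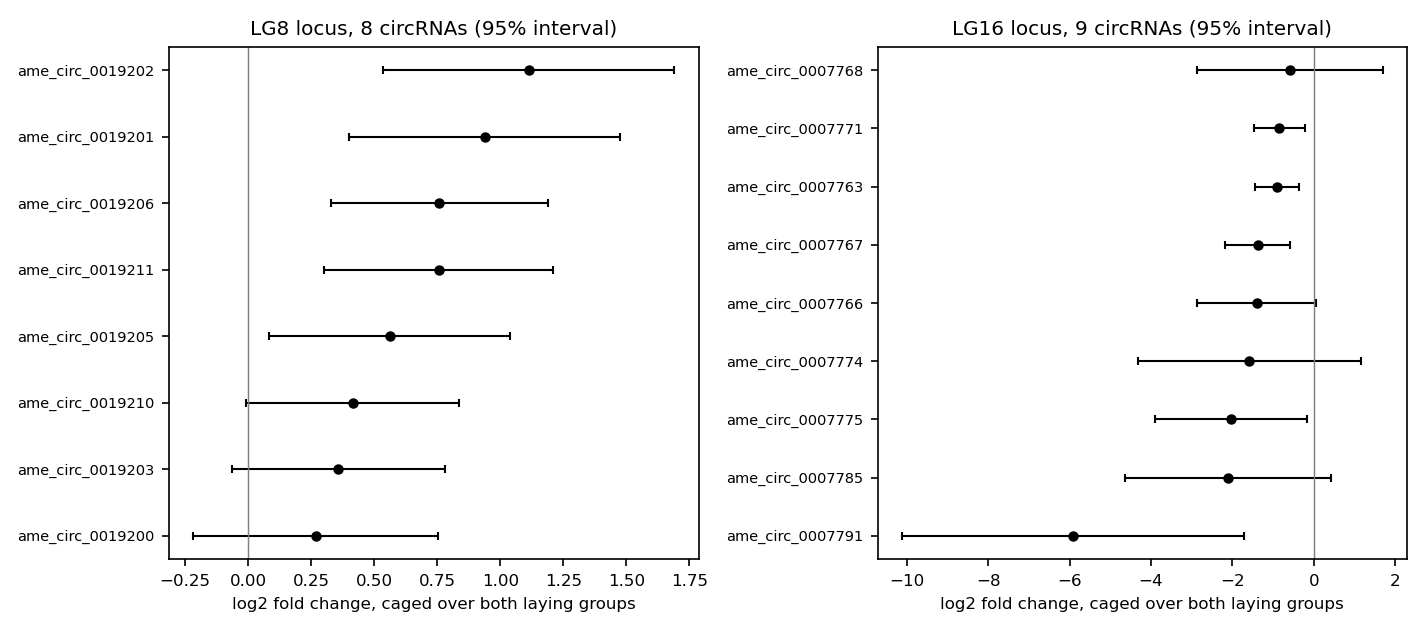
Log2 fold change of caged over both laying groups (horizontal axis) with its 95% interval for each circRNA of the LG8 locus at 8546045 (left) and of the LG16 locus (right). All 8 LG8 estimates are above 0 and all 9 LG16 estimates are below 0, and none had an adjusted p under 0.05 in edgeR.

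Among single circRNAs higher in caged queens, ame_circ_0006114 had the smallest p. It lies at LG15:3022811-3027767 on the minus strand and had 218, 822 and 556 CPM in caged libraries, against 165, 63.2 and 78.6 CPM in laying and 244, 183 and 243 CPM in released libraries. The first caged library was below 2 of the released ones, and the other caged libraries were above all 6 libraries of the laying state. The log2 fold change was 1.85 ± 0.38 (SE, adjusted p = 0.295), and when 1 library was left out it ran from 1.38 (adjusted p = 0.493) without caged replicate 2 to 2.22 (adjusted p = 0.0402) without caged replicate 1. It was the only circRNA called in any of these 9 fits, and in that 1 fit alone.

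The stretch around ame_circ_0006114, LG15:3011219-3057596, held 9 circRNAs. At an unadjusted p under 0.05, 4 were higher and 1 was lower, beside 5.11% and 3.43% over all 2800. The lower one, ame_circ_0006110, was listed at 0 in all 3 caged libraries. It passed the filter on low counts through libraries of the laying state alone, so its value is a description. The most abundant of the locus, ame_circ_0006126, had 905, 616 and 681 CPM in caged libraries, against 630, 604 and 685 CPM in laying and 827, 1056 and 766 CPM in released libraries. Its log2 fold change was 0.01 ± 0.21 (SE), unlike the 1.31 ± 0.40 of ame_circ_0006127, which has the same start and a farther end. The F test of unequal change within this locus gave an adjusted p of 0.0644, so the contrast between these members was not called.

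Further circRNAs with higher values in caged queens were rarer. On LG8, at 9235370-9237533, ame_circ_0019277 had 242, 599 and 323 CPM in caged libraries, against 172, 121 and 89.8 CPM in laying and 188, 128 and 207 CPM in released libraries, with no overlap and a log2 fold change of 1.41 ± 0.33 (SE, adjusted p = 0.295), or 0.94 without caged replicate 2. On LG7, ame_circ_0017768 had 140, 135 and 244 CPM in caged libraries, against 37.5, 34.5 and 44.9 CPM in laying and 56.4, 140 and 99.1 CPM in released libraries, and 1 released library reached the caged range. Its locus, LG7:7748457-7751643, did not overlap when its 2 circRNAs were summed, with 179, 164 and 295 CPM in caged libraries and 37.5 to 140 CPM in the laying state (log2 fold change 1.48 ± 0.36, SE, adjusted p = 0.231).

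Some circRNAs separated caged queens from the laying group more than from the released group. The circRNA ame_circ_0011147 (LG2:13345342-13346062) had 208, 82.2 and 182 CPM in caged libraries, 0 in all 3 laying libraries and 0, 110 and 63.0 CPM in released libraries. It was listed again in 2 of 3 released libraries, so caged and released queens overlapped. In the same way ame_circ_0001935 (LG10:9735389-9735961) had 2221, 2665 and 2587 CPM in caged libraries, against 1387, 1420 and 1538 CPM in laying and 1993, 1581 and 2279 CPM in released libraries. The log2 fold change of ame_circ_0001935 was 0.81 against laying and 0.41 against released queens, and the difference between these was not called (released vs laying, adjusted p = 0.69).

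A few circRNAs were listed on one side alone. Of the 2800 tested, 5 circRNAs were at 0 in all 6 libraries of the laying state, all of them listed in every caged library, and 12 were at 0 in all 3 caged libraries. Such circRNAs passed the filter through the group where they are high, so these counts are descriptions. The highest, ame_circ_0009994 (LG1:28803966-28862777), had 11, 11 and 9 reads in caged libraries, which is 53.2, 64.6 and 51.1 CPM, and was listed at 0 in the laying, released and virgin libraries. Caged libraries had more reads on average, and the part of depth in this pattern was not tested.

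Among the most abundant circRNAs, ame_circ_0006346 (LG15:5368191-5375154) stood above all 6 libraries of the laying state. It had 20291, 12777 and 16489 CPM in caged libraries, against 8321, 11275 and 4119 CPM in laying and 8901, 11625 and 12556 CPM in released libraries. The gap between the lowest caged and the highest released library was small beside the spread, and the log2 fold change was 0.85 ± 0.27 (SE, adjusted p = 0.394). The most abundant with a positive difference, ame_circ_0017693, averaged 27790 ± 7329 CPM in caged queens (SD, n = 3) and 19446 ± 6156 CPM in the laying state (SD, n = 6), and ame_circ_0011722 averaged 12536 ± 6110 CPM in caged queens and 9168 ± 3423 CPM in the laying state. Both overlapped, with unadjusted p of 0.0557 and 0.109.

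The circRNAs lower in caged queens included several with little spread among the caged libraries. On LG3, ame_circ_0012215 (LG3:1090193-1091573) had 184, 182 and 187 CPM in caged libraries, against 315, 443 and 438 CPM in laying and 573, 500 and 324 CPM in released libraries. No library overlapped, and the log2 fold change was -1.18 ± 0.26 (SE, adjusted p = 0.295). It ranged from -1.27 to -1.11 when any 1 library was left out. DESeq2 gave it an adjusted p of 0.00826.

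On LG1, ame_circ_0009157 (LG1:21227866-21228686) was among the 5 most abundant circRNAs of the 9 libraries and had 10194, 9919 and 10440 CPM in caged libraries, against 11836, 14443 and 14264 CPM in laying and 13478, 17898 and 16285 CPM in released libraries. Caged libraries lay below all others with a fitted fold of 0.713, a log2 fold change of -0.49 ± 0.17 (SE, adjusted p = 0.442). On LG6, ame_circ_0016977 (LG6:9962249-9962721) was lower to a like extent, with 3062, 3463 and 2973 CPM in caged libraries, against 5097, 4341 and 6464 CPM in laying and 5000, 4760 and 4332 CPM in released libraries. Its log2 fold change was -0.61 ± 0.17 (SE, adjusted p = 0.316), and DESeq2 called both, with adjusted p of 0.0255 for ame_circ_0009157 and 0.00826 for ame_circ_0016977.

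Other abundant circRNAs with a lower mean in caged queens overlapped with the laying state. On a contig outside the linkage groups, ame_circ_0000149 had 19502, 31154 and 31917 CPM in caged libraries, against 37623, 34084 and 39975 CPM in laying and 34719, 29486 and 31642 CPM in released libraries, with a log2 fold change of -0.29 ± 0.17 (SE, adjusted p = 0.702). On LG15, ame_circ_0006312 had 21776, 16903 and 7842 CPM in caged libraries, against 33073, 28662 and 12233 CPM in laying and 13967, 15262 and 21013 CPM in released libraries, and its spread within each group was wide (log2 fold change -0.35 ± 0.34, SE, adjusted p = 0.848).

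Larger folds were seen at lower abundance. On LG5, ame_circ_0015702 (LG5:9141630-9145087) had 111, 47.0 and 238 CPM in caged libraries, against 1005, 540 and 337 CPM in laying and 470, 427 and 324 CPM in released libraries, a log2 fold change of -1.90 ± 0.45 (SE, adjusted p = 0.295). It was -1.51 without caged replicate 2 and -2.59 without caged replicate 3. The other member of its locus, ame_circ_0015705, had 29.0, 41.1 and 11.3 CPM in caged libraries, against 45.0, 23.0 and 22.4 CPM in laying and 47.0, 36.6 and 0 CPM in released libraries, which overlapped. On LG11, ame_circ_0003173 had 48.4, 47.0 and 73.8 CPM in caged libraries, against 120, 287 and 78.6 CPM in laying and 348, 226 and 198 CPM in released libraries (log2 fold change -1.83 ± 0.45, SE, adjusted p = 0.295). In CPM, neither ame_circ_0015702 nor ame_circ_0003173 overlapped between the caged and the other libraries, but in reads both did. For ame_circ_0015702, caged libraries had 23, 8 and 42 reads and laying libraries 134, 94 and 30. For ame_circ_0003173, caged libraries had 10, 8 and 13 reads and laying libraries 16, 50 and 7.

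At the low end, ame_circ_0013110 (LG3:7821870-7822316) had 4, 0 and 2 reads in caged libraries, or 19.4, 0 and 11.3 CPM, against 97.4, 109 and 22.4 CPM in laying and 150, 97.6 and 72.1 CPM in released libraries. Laying libraries had 13, 19 and 2 reads and released libraries 16, 16 and 8, so in reads the groups overlapped and in CPM they did not. Its log2 fold change was -2.98 ± 0.73 (SE, adjusted p = 0.295), and it was -3.78 without caged replicate 1 and -2.47 without caged replicate 2. Since ame_circ_0013110 passed the filter on low counts through libraries of the laying state alone, these values are descriptions. No read of ame_circ_0009395 (LG1:23162961-23164474) was listed in caged libraries, against 52.5, 23.0 and 56.1 CPM in laying and 84.6, 287 and 0 CPM in released libraries. One released library was also at 0, so the groups overlapped.

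**Figure D3:**
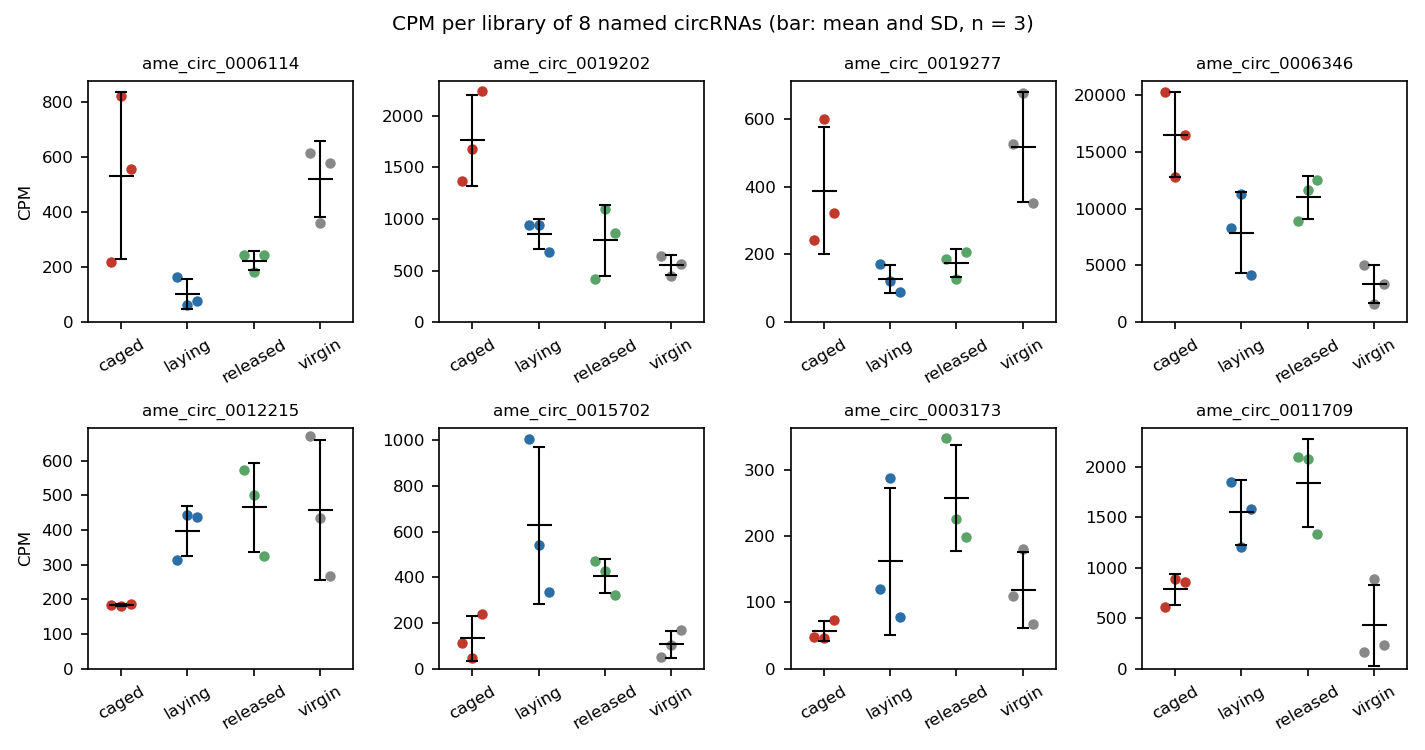
CPM per library (vertical axis) in caged, laying, released and virgin queens for 4 named circRNAs with a higher mean in caged queens (top) and 4 with a lower one (bottom), with the mean and SD of each group (n = 3). Caged points lie outside the range of the laying and released points in every panel except that of ame_circ_0006114, and the virgin points entered no test.

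The most abundant locus of all was not called as a whole and held members with opposite differences. At LG2:4622669-4807227 on the plus strand, 31 circRNAs summed to 78066, 78764 and 72391 CPM in caged libraries, against 70845, 87832 and 108020 CPM in laying and 80933, 83082 and 79559 CPM in released libraries (log2 fold change -0.11 ± 0.14, SE, adjusted p = 0.872). Its leading circRNA, ame_circ_0011734, averaged 31392 ± 4882 CPM in caged queens (SD, n = 3) and 35896 ± 8892 CPM in the laying state (SD, n = 6). Within it, ame_circ_0011709 (LG2:4622669-4699421) had 610, 892 and 857 CPM in caged libraries, against 1852, 1207 and 1582 CPM in laying and 2096, 2075 and 1333 CPM in released libraries. It was below all 6 others, with a log2 fold change of -1.06 ± 0.23 (SE, adjusted p = 0.295), and had the smallest adjusted p of DESeq2, 0.00181.

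The use of single circRNAs within their locus was tested in the 508 loci with 2 or more members. A difference in usage means that one member changed by more or less than the rest of its locus. The Simes test called 3 loci (0.591%) and the F test 1 (0.197%), and all the Simes calls were lost when libraries were thinned to 89106 reads or when the first laying, the first caged or the second caged library was left out. At LG11:7641735-7696323, called by both tests (Simes adjusted p = 0.0101), the long ame_circ_0003039 had 7, 16 and 6 reads in caged libraries and was listed at 0 in all 6 others. It shares its end with ame_circ_0003040, which had 323, 377 and 296 reads in caged libraries, against 258, 401 and 202 reads in laying and 214, 254 and 155 reads in released libraries. The share of ame_circ_0003039 was 2.73% ± 1.17 of the locus in caged queens (SD, n = 3) and 0% in the laying state. It passed the filter on low counts through the caged libraries alone, so its pattern is a description.

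At LG10:6222009-6256031, 9 circRNAs included 2 with the same end, 6246217, that differed in opposite directions. The short ame_circ_0001519, which spans 333 nt, took 0.652%, 1.23% and 3.84% of the locus's reads in caged libraries, against 13.0%, 13.6% and 6.11% in laying and 11.3%, 9.09% and 0.602% in released libraries. One released library was below all the others, and the exact permutation p of the share was 0.0952. The long ame_circ_0001506, which spans 16488 nt, took 40.4%, 39.8% and 37.2% in caged libraries, against 25.4%, 25.7% and 17.9% in laying and 22.4%, 27.3% and 36.3% in released libraries, with no overlap. The Simes adjusted p of the locus, 0.0101, rests on ame_circ_0001519 (usage adjusted p = 0.00614), since ame_circ_0001506 was not called (usage adjusted p = 0.9999).

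The call in the LG2 locus rested on ame_circ_0011715, with 49, 50 and 13 reads in caged libraries, 0 in all 3 laying libraries and 40, 0 and 23 reads in released libraries. Released queens overlapped with caged ones and the exact permutation p of its share was 0.286. The next locus by p, LG11:1280902-1319810, was not called (Simes adjusted p = 0.241). Its ame_circ_0002296 had 8, 10 and 7 reads in caged libraries and 0 in all 6 others. It passed the filter on low counts through the caged libraries alone, so its pattern is a description.

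**Figure D4:**
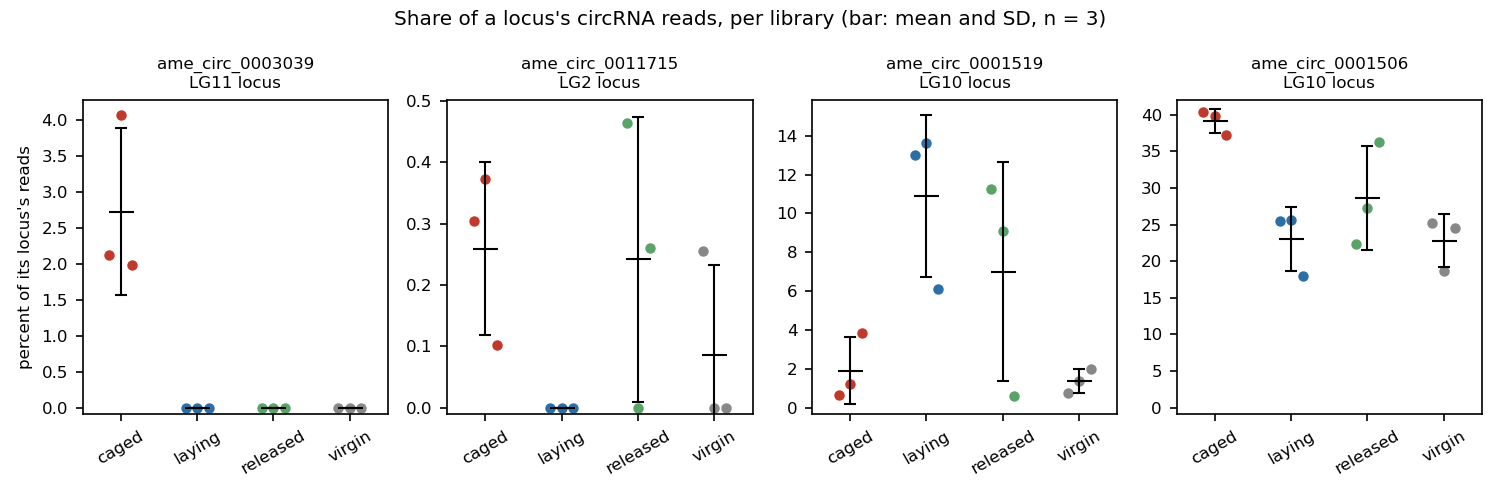
Share of the reads of its locus (vertical axis, percent) taken by ame_circ_0003039, ame_circ_0011715, ame_circ_0001519 and ame_circ_0001506 in each library, with the mean and SD of each group (n = 3). The share of ame_circ_0001506 is 37.2% to 40.4% in caged queens, above all 6 libraries of the laying state, while that of ame_circ_0011715 overlaps with the released group.

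The genomic span of circRNAs, which includes introns and is not the length of the circle, was compared as shares of reads, and no difference passed after adjustment. CircRNAs spanning up to 500 nt took 18.5%, 18.9% and 19.1% of reads in caged libraries, against 22.1%, 22.7% and 22.2% in laying and 23.4%, 21.6% and 21.0% in released libraries. Caged libraries lay below all others, with an exact permutation p of 0.0238, the smallest possible, and an adjusted p of 0.0714 over 6 values. CircRNAs spanning over 10000 nt took 22.3%, 21.9% and 22.6% in caged libraries, against 20.2%, 20.4% and 21.4% in laying and 18.5%, 20.7% and 20.6% in released libraries, again with no overlap and the same p. Of the classes between, the longer one, up to 10000 nt, was not tested by its share. It took 28.1% to 30.7% of reads in caged libraries and 25.3% to 28.4% in the laying state, which overlapped. Its mean difference was 2.24 percentage points, beside 1.99 for the class over 10000 nt and -0.905 for the other class between. The classes of a library add up to all its reads, so a lower share in one raises the rest together. Caged libraries also had more reads on average, and the part of depth in these shares was not tested.

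By single circRNAs, of 527 tested circRNAs spanning up to 500 nt, 11 (2.09%) were higher and 32 (6.07%) lower in caged queens at an unadjusted p under 0.05, and the median log2 fold change was -0.12. Of 576 spanning over 10000 nt, 45 (7.81%) were higher and 16 (2.78%) lower, and the median was 0.21. Over all 2800 the shares were 5.11% higher and 3.43% lower. The classes between had medians of 0.10 and 0.12, beside 0.08 for all 2800. The 143 circRNAs with higher values had a median span of 3187 nt and the 96 with lower values 1384 nt, beside 2050 nt for all tested.

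Beside the net difference of their class, the 5 leading circRNAs weighed more in the long class than in the short one. The net gain of the long class was 19889 CPM. Its 5 leading circRNAs gained 15017 CPM, with ame_circ_0019211, ame_circ_0019206 and ame_circ_0019210 of the LG8 locus at the front. Its 50 leading circRNAs gained 28371 CPM, more than the net gain, since other members were lower. Without the LG8 locus the long class took 19.2% ± 0.718 of reads in caged queens (SD, n = 3) and 18.3% ± 1.03 in the laying state (SD, n = 6), and the groups overlapped (exact permutation p = 0.143). In the short class the net difference was -33211 CPM, and its 5 leading circRNAs gave -14473 CPM. Among these, ame_circ_0006312 gave -5195 CPM and ame_circ_0011720 gave -3642 CPM. Without the LG8 locus, left out after seeing the data, the short class took 19.8% ± 0.575 in caged queens (SD, n = 3) and 22.9% ± 0.795 in the laying state (SD, n = 6, unadjusted exact permutation p = 0.0238). Without the 100 most abundant circRNAs the short class took 18.4% ± 1.27 in caged queens and 21.0% ± 1.11 in the laying state (exact permutation p = 0.0476). The groups then overlapped, with 19.74% in the highest caged and 19.67% in the lowest laying-state library. The long class also overlapped after that removal (exact permutation p = 0.214).

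**Figure D5:**
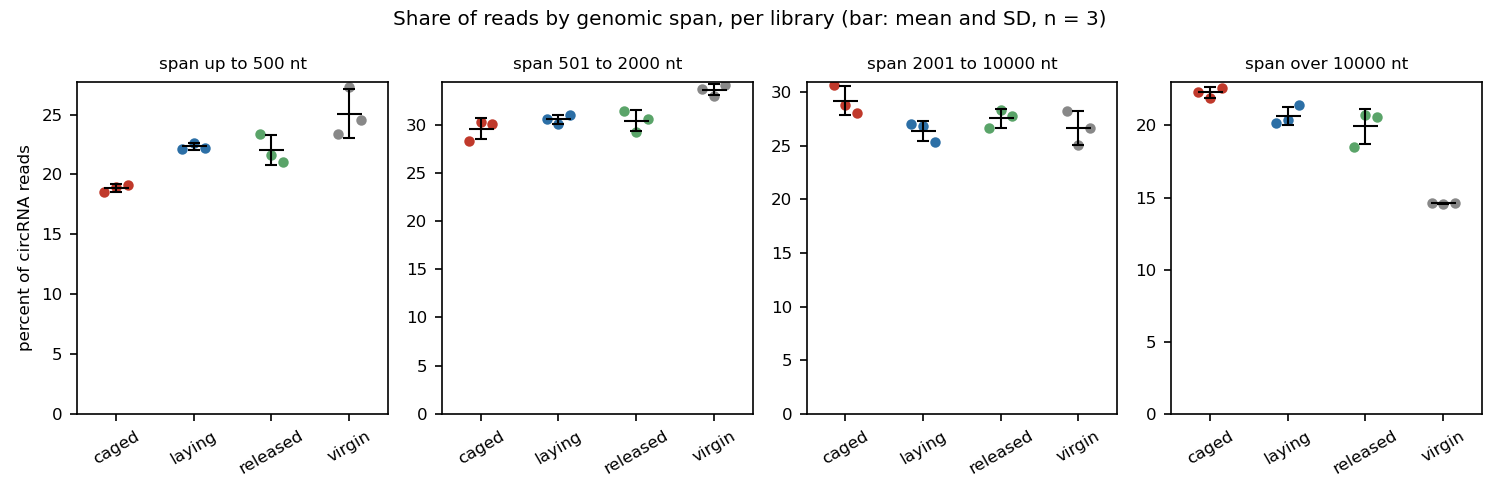
Percent of circRNA reads (vertical axis) in 4 classes of genomic span for each caged, laying, released and virgin library, with the mean and SD of each group (n = 3). Caged libraries are below all laying and released ones in the class up to 500 nt (18.5% to 19.1%) and above them in the class over 10000 nt (21.9% to 22.6%).

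The laying and the released group, pooled as the laying state, were also set against each other in the same fit. Only ame_circ_0015433 was called among 2800 (0.0357%) in released against laying and in caged against laying queens (0.0357%), and 0 (0%) in caged against released queens. In edgeR an unadjusted p under 0.05 was found for 213 (7.61%) in released against laying, 252 (9%) in caged against laying and 189 (6.75%) in caged against released queens. It lies at LG5:5907191-5908645 and had 0, 11.7 and 0 CPM in caged libraries, against 322, 339 and 202 CPM in laying and 0, 18.3 and 0 CPM in released libraries. The log2 fold change of released over laying was -5.13 with an adjusted p of 0.04998, and that of caged over laying was -6.00 with an adjusted p of 0.0135. Caged over released it was -0.87 and not called (adjusted p = 0.978). With 0, 2 and 0 reads in caged and 0, 3 and 0 reads in released libraries, ame_circ_0015433 passed the filter through the laying libraries alone. Its higher values in the laying group are therefore a description. The number called in released against laying was 0 without any 1 laying library, without caged replicate 2 or 3 and without released replicate 1 or 3. Against both groups with equal weight its log2 fold change was -3.44 ± 1.05 (SE, adjusted p = 0.363), which averages over groups that differed. It was -5.84 without caged replicate 2 and -1.78 without released replicate 2.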

How the data were processed

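RNA from queen ovaries was depleted of ribosomal RNA, treated with RNase R, an exonuclease of linear RNA, and made into directional libraries for paired-end sequencing, per the labels' protocols. The reference was Amel_4.5, and Bowtie is named without a version, per the submitters' processing notes. No source used here gives the circRNA caller, its thresholds or whether starts count from 0 or 1. The authors deposited whole-number counts per circRNA and library, and columns headed TPM per the file headers that hold CPM (count over the library's circRNA total, equal to recomputed values within 4.99e-06). The labels do not say that samples were separate queens, so p-values measure the spread between these samples.

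Counts of 9 libraries were fitted with edgeR 4.0.16 in R 4.3.3 (TMM, quasi-likelihood, filterByExpr with minimum count 5 and minimum total 15), with the contrast caged minus the mean of laying and released. Printed CPM are scaled by library totals, fitted folds by TMM. A Benjamini-Hochberg adjusted p under 0.05 was called. Loci joined tested circRNAs overlapping by at least 1 base on a strand (GenomicRanges 1.54.1), which gave 1453 loci, and usage within loci used diffSpliceDGE, which fits 1 spread per locus. Span is end minus start plus 1. Exact permutation tests used SciPy 1.17.1. DESeq2 1.42.0, limma 3.58.1, other scalings and filters, thinning, a replicate block and leaving out each library were the alternatives. Scripts were tested on simulated data.

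Named circRNAs are, per direction, the 6 with the smallest p where fewer are called, the 5 most abundant, the 5 with the largest CPM difference per direction, those called in another contrast of the fit, and the 3 most abundant of the 4 loci with the smallest p per direction, and for usage the 4 loci with the smallest Simes p. Members, lists and rules were chosen with earlier results of these data known. Circles named outside the rule are those of the loci at LG8:8546045 and LG15:3011219, ame_circ_0007785, ame_circ_0007791 and members of usage loci, and were picked after their values were seen.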

Additional observations from a re-analysis of the deposited data

Results flagged for a closer look

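One result stood out because the laying and the released group differed from each other. The log2 fold change of released over laying was -5.13 for ame_circ_0015433 (adjusted p = 0.04998 in edgeR's quasi-likelihood test over 2800 circRNAs). It had 0, 3 and 0 reads in released libraries and 43, 59 and 18 reads in laying libraries. The call was lost when any 1 laying library was left out. Since ame_circ_0015433 passed the filter on low counts through the laying libraries alone, its pattern is a description.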

How the results depend on the processing

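The count of 0 circRNAs called in caged against both laying groups stayed at 0 under other scalings, the stricter filter, all 12 libraries, thinning, limma, the robust fit and laying and released as one group. DESeq2 called 16 (adjusted p not given for 2063) and no filter gave 38 of 15729 tested. Loci called numbered 0, but 15 with DESeq2 and 27 with no filter. Leaving out 1 library gave 0 to 1 circRNAs and 0 to 0 loci. Released against laying gave 1 call, 19 with no filter, 10 with DESeq2, 0 with all 12 libraries and 0 to 2 without 1 library. Usage calls by Simes were 3, and 0 when thinned, with 0 to 4 without 1 library. By the F test they were 1, with 8 for no filter, 2 for all 12 libraries, 0 when thinned and 0 to 5 without 1 library. Same-numbered libraries correlated at -0.164 to 0.0355 in their deviations from group means. With 3 libraries per group these values cannot decide whether the numbers pair the samples, and no pairing was assumed. With the replicate block, usage calls were 0 by Simes and 0 by the F test, and 0 circRNAs and 0 loci were called.

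The difference in circRNAs expected after thinning was -35.2, and 695 for circRNAs with at least 1 read, a measure that the absence of counts of 1 in the deposited table makes void. Without 1 library it ran from -88.4 to 31.6. Over 33 named circRNAs and their alternatives, 10 of 688 values turned sign, and 0 of 167 for the 8 named loci. For ame_circ_0015705 (log2 fold change -0.05) the sign turned when thinned (0.15), with the replicate block (0.017), with limma at log2(CPM + 1) (0.44) and log2(CPM + 10) (0.068), and without 1 library (-0.45 to 0.31, with 0.14, 0.17 and 0.12 between). For ame_circ_0016980 it ran from -0.32 to 0.081, with 0.077 between. The cause was not tested. Removing the 10 or the 100 most abundant circRNAs or the LG8 locus, chosen after seeing the data, moved the long-class difference to 2.36, 1.42 and 0.967 percentage points, and the short-class one to -3.08, -2.52 and -3.12. Precision was compared by abundance, not by library depth: 95% intervals stayed within 2-fold for 53.2% of the 1157 circRNAs with a mean of at least 100 CPM and for 23.4% of all 2800.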

Other observations

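Virgin queens, which entered no test, stood at different places for the loci described. For the LG8 locus at 8546045, virgin libraries had 15108, 16349 and 16060 CPM, lower than all caged, laying and released libraries. In the LG16 locus they had 705, 707 and 596 CPM, beside 668 CPM in the lowest caged library. At LG15:3011219-3057596 they had 3674, 3113 and 3140 CPM, above every caged, laying and released library. The short span class took 23.4%, 27.3% and 24.6% of reads in virgin libraries and the long class 14.6%, 14.5% and 14.6%, so caged libraries were farther from virgin ones than the laying state was on both. Virgin values of ame_circ_0006114 were 616, 361 and 579 CPM and those of ame_circ_0019277 were 526, 677 and 353 CPM.

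A locus at LG10:10466595-10490353, outside the rule for named loci and picked after its values were seen, held 9 circRNAs with higher means in caged queens. Of these overlapping circRNAs, 4 had an unadjusted p under 0.05, beside 5.11% higher over all 2800. The locus had 5540, 4801 and 6168 CPM in caged libraries, against 2361, 2748 and 1986 CPM in laying and 4549, 2972 and 7098 CPM in released libraries, and caged and released queens overlapped.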
